A study of Mus musculus with 6 samples.

Results

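A set of 10 germline genes was followed through the RNA-Seq data, 9 of them germ cell genes known to be controlled by DNA methylation of their promoters and 1 (*Ooep*) an oocyte gene. They are *Dazl*, *Ddx4*, *Sycp1*, *Sycp3*, *Mael*, *Tex19.1*, *Asz1*, *Tdrkh*, *Stk31* and *Ooep*, taken by symbol from the deposited expression table, in which they are 10 of 21639 gene entries. The table holds 6 poly(A) RNA libraries of mouse embryonic stem cells (ESCs) of the V6.5 (129SvJaexC57BL/6) background, 1 for each of 3 lines as undifferentiated ESCs (D0) and 1 for each as embryoid bodies (EBs) after 3 days without LIF (D3). The line labelled H2AZ WT expresses a YFP-tagged wild-type histone H2A.Z, and H2AZ-AP3 expresses the same fusion with 3 residues of its acidic patch replaced by those of H2A. By the protocol, both transgenes were brought into KH2 ESCs by lentivirus under a doxycycline-inducible CMV promoter, YFP-positive cells were sorted, and hairpins against the endogenous H2A.Z gene were added to both lines. The line labelled H2AZ KD is an inducible line with these hairpins, and whether its transgene was induced is not stated in the sources used here. The ESCs were plated without feeder fibroblasts for the final passage only.

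Germline genes are read in germ cells and closed in most other cells. In the mouse their CpG-rich promoters become methylated around implantation, and complexes that hold E2F6 or the MGA and MAX proteins, which bind E2F and E-box sequences, also keep them off. Pluripotent cells in culture are known to leak some of these transcripts. H2A.Z is a histone variant found at promoters, and the study asked how its acidic patch bears on gene expression before and during differentiation. DNA methylation itself was not measured in these libraries.

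The promoters of the 10 genes held more CpGs than the median promoter. RefSeq promoter windows, from 250 bases before to 50 after a transcript start, were found for all 10 genes (11 windows, 2 of them for *Stk31*), and every one matched the mm9 genome exactly once. They held 15 to 38 CpGs, with a median of 22.5 over the genes, against a median of 7 over 32851 windows of 27025 genes. *Ddx4* had the most, with 38 CpGs and an observed over expected ratio of 0.98, and *Sycp3* and *Ooep* had the fewest, with 15 each, which is more than in 65.4% of all windows. The lowest ratios were 0.58 in *Tex19.1*, 0.60 in *Ooep* and 0.67 in *Sycp3*, against a median of 0.38 over all windows. The E-box CACGTG was present in 5 of the 10 genes, and 8.09% of all genes had it in a window. The E2F core TCCCGC, read on both strands, was present in 5 of the 10 and in 22.1% of all genes. Both 6-letter sequences contain a CG, and the shares of all genes were not matched to the CpG counts of the members. These 6-letter matches do not overlap each other, and they describe the letters of the window and not a bound site.

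The E-box windows are shown because the same 6 letters recur in genes with unlike roles and unlike levels in these libraries. *Sycp3* has 2 of them close together. Each line gives 30 bases, 5′ to 3′ on the strand of the gene, in mm9 coordinates, and the capitals mark the E-box.
*Ddx4*, chr13:113442530-113442559, − strand, 29 bases before the start: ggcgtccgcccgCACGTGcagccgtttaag
*Sycp1*, chr3:102740100-102740129, − strand, 94 bases before the start: tagagaacccggCACGTGggaagggaaatc
*Sycp3*, chr10:87922256-87922285, + strand, 64 bases before the start: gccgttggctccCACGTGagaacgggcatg
*Sycp3*, chr10:87922277-87922306, + strand, 43 bases before the start: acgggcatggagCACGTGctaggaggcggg
*Mael*, chr1:168169081-168169110, − strand, 223 bases before the start: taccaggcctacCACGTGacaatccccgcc
*Stk31*, chr6:49345471-49345500, + strand, 55 bases before the first of its 2 starts: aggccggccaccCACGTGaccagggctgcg

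*Tex19.1* had no E-box in its window but a single E2F core, 33 bases before the start, shown here because this gene was among the most abundant of the 10. The capitals mark the core as it reads on the strand of the gene.
*Tex19.1*, chr11:121007412-121007441, + strand: agctggagcatcGCGGGActtggcccttta

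Levels were read as RPKM, the reads of a gene scaled by its transcript length and by the depth of the library, which the authors obtained with Cufflinks. Depth was estimated from the steps between the lowest RPKM values at 17.2 to 31.0 M reads per library (M, mega), the deepest being H2AZ-AP3 ESCs. That library nevertheless had 16997 entries above 0, fewer than ESCs of H2AZ WT (17148) and of the line labelled H2AZ KD (17170). Whether its depth was overestimated was not tested, and if it was, the intervals below that involve it are too narrow. The intervals given below are exact 95% intervals for the number of reads (Poisson for a level, binomial for a ratio). They cover counting error only and say nothing of differences between cultures, of which there is 1 per condition. *H2afz*, the gene the hairpins target, was at 279 RPKM in H2AZ WT, 343 in the library labelled H2AZ KD and 304 in H2AZ-AP3 ESCs, and in EBs at 258, 236 and 394 RPKM. It was thus not lower under the KD label at D0. Reads of the transgenes can be counted as *H2afz*, so these values do not settle the label, and that line is called the library labelled H2AZ KD throughout. Among ESC markers, *Pou5f1* lay between 358 and 540 RPKM in all 6 libraries, and *Klf4* and *Sox2*, 2 of the 5 markers analysed, were lower past 1.5-fold in H2AZ-AP3 than in H2AZ WT ESCs, as were 5.49% of all genes. The 8 markers of feeder fibroblasts summed to 36.7, 30.0 and 55.0 RPKM at D0 in the same order of lines and to 13.5, 7.68 and 11.3 RPKM at D3. Without *Thy1*, which alone held 9.19, 5.48 and 3.56 RPKM at D3, the other 7 summed to 35.0, 27.6 and 53.3 RPKM at D0 and to 4.28, 2.20 and 7.70 RPKM at D3. *Postn* of that list was at most 0.11 RPKM in any library.

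Transcripts of 9 of the 10 were present in the 3 ESC libraries, at 1.66 to 33.6 RPKM, and the set as a whole is therefore not called silent here. Over the 6 libraries *Ooep*, *Sycp3*, *Tex19.1* and *Ddx4* averaged 25.5, 24.8, 19.9 and 11.2 RPKM, above 86.6%, 86.2%, 83.4% and 74.1% of all entries. *Mael*, *Tdrkh*, *Stk31*, *Sycp1* and *Dazl* averaged between 1.73 and 3.43 RPKM, above 49.9% (*Dazl*) to 57.0% (*Mael*) of all entries. Only *Asz1* was close to 0. In these bulk libraries fewer cells that express a gene and less RNA per cell cannot be told apart.

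**Figure D1:**
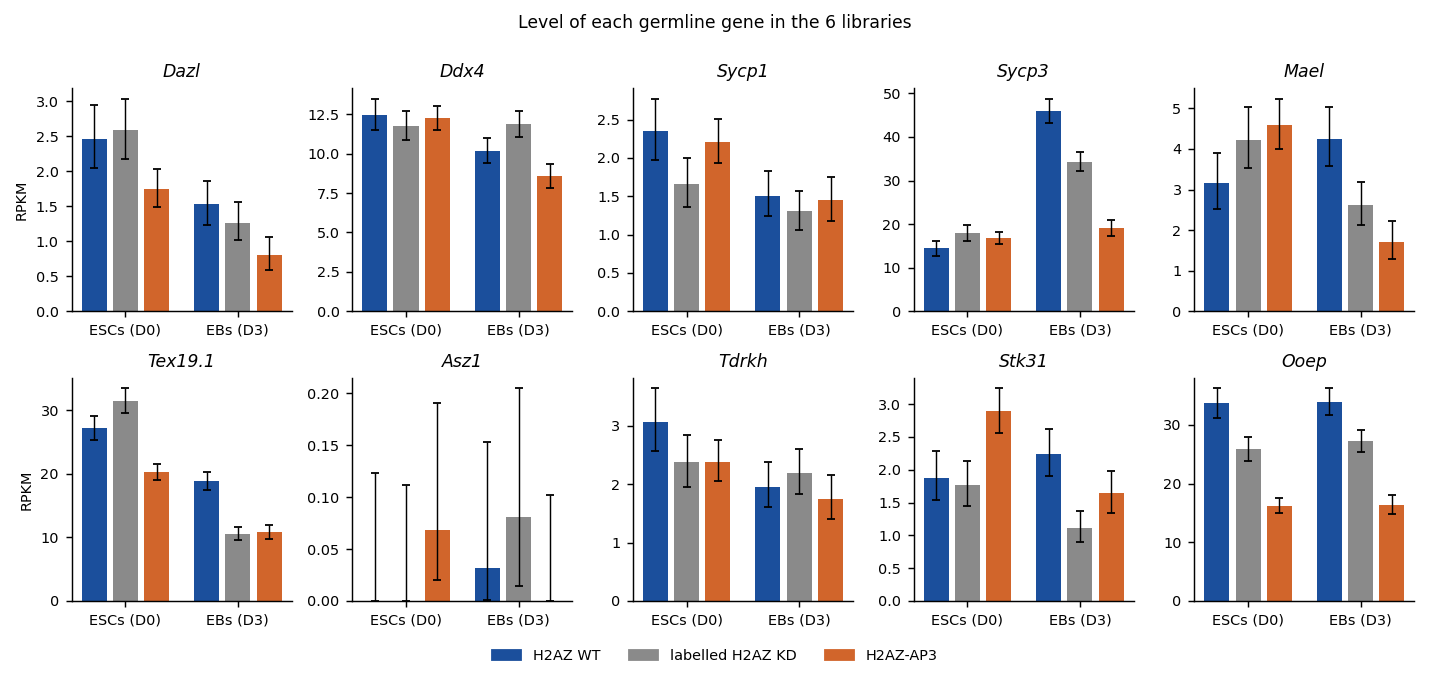
RPKM of each of the 10 genes (vertical axis, starting at 0 and scaled for each gene) in the 6 libraries, with blue bars for H2AZ WT, grey for the library labelled H2AZ KD and orange for H2AZ-AP3, and with lines for exact 95% Poisson intervals of the estimated reads. *Ooep* is lowest in H2AZ-AP3 at both days, whereas *Sycp3* separates the lines in EBs, at 46.0, 34.3 and 19.1 RPKM, and *Asz1* stays under 0.1 RPKM.

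Fold changes were computed as log2((RPKM + 0.001)/(RPKM + 0.001)), and a gene was said to pass 1.5-fold when this value was beyond 0.58 in either direction. Members were counted only if they had a mean of at least 1 RPKM over all 6 libraries, which left 9 of the 10 and 11842 of all genes. With 1 library per condition, no p-value is given for a difference between 2 libraries. A fit over all 6 libraries follows the comparisons. The median log2 change of all 11842 genes lay between −0.03 and 0.05 in each of the 7 comparisons.

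In H2AZ-AP3 ESCs *Ooep* was lower and *Stk31* higher than in H2AZ WT ESCs, and the other 7 counted members were within 1.5-fold. This makes 1 of 9 members lower, against 5.49% of all genes, and 1 of 9 higher, against 6.80%. The median log2 change of the members was −0.09, and that of all genes was 0.0017. In EBs the picture was one-sided. *Dazl*, *Sycp3*, *Mael*, *Tex19.1* and *Ooep* were lower in H2AZ-AP3, 5 of 9 members against 5.21% of all genes, none was higher, against 4.05% of all genes, and all 9 had a log2 change under 0. The median of the members was −0.80, and that of all genes was −0.0038. With a pseudocount of 1 RPKM *Dazl* (−0.49) was within 1.5-fold in EBs. This left 4 members lower, against 4.72% of all genes changed in either direction. The members were chosen with earlier results of these data known, so these counts are a description and not a test. Of the 5 counted fibroblast markers, *Col1a1* and *Col1a2* were higher in H2AZ-AP3 than in H2AZ WT in ESCs and none was lower. In EBs *Col1a1*, *Col1a2*, *Pdgfrb* and *S100a4* were higher and *Thy1* was lower. *Col1a2*, the most abundant, was at 12.9 against 22.5 RPKM in ESCs and 1.3 against 2.36 RPKM in EBs. The part of these markers in the results was not tested.

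The library labelled H2AZ KD was set against H2AZ WT in the same way. At D0 none of the 9 members passed 1.5-fold in either direction, where 2.94% of all genes were higher and 4.02% lower. At D3 *Mael*, *Tex19.1* and *Stk31* were lower, 3 of 9 members against 4.53% of all genes, and none was higher, against 3.23% of all genes. With a pseudocount of 1 RPKM *Mael* (−0.54) was within 1.5-fold at D3. This left 2 members lower, against 3.39% of all genes changed in either direction. Of the 5 counted fibroblast markers *S100a4* was lower under this label at D0, and *Col1a1*, *Col1a2*, *S100a4* and *Thy1* were lower at D3, the collagens and *S100a4* in the direction opposite to that in H2AZ-AP3 EBs. Their part in the results was not tested. Both sets of comparisons use the same H2AZ WT library of each day, so a value peculiar to that library would enter both. In EBs 4 of 9 members (*Dazl*, *Sycp3*, *Mael* and *Ooep*) stood in the order H2AZ WT, library labelled H2AZ KD, H2AZ-AP3 from high to low, an order found in 17.1% of all genes. In ESCs 1 of 9 (*Ooep*) did, against 16.8% of all genes.

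**Figure D2:**
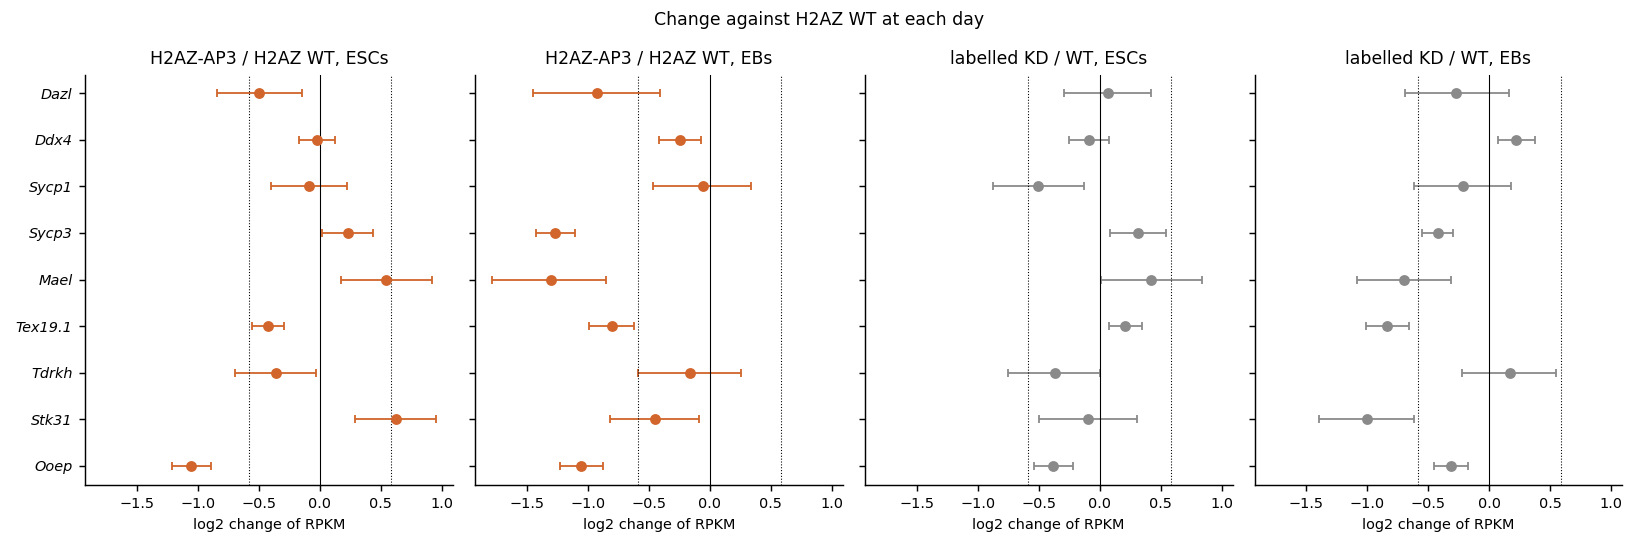
Log2 change of RPKM against H2AZ WT of the same day (horizontal axis) for the 9 counted members, in orange for H2AZ-AP3 and in grey for the library labelled H2AZ KD, with exact 95% binomial intervals for counting error and dotted lines at 1.5-fold. In the EB panel of H2AZ-AP3 all 9 points lie left of 0 and 5 of them lie past the dotted line.

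*Ooep* encodes an RNA-binding KH-domain protein of the subcortical maternal complex, which early mouse embryos need beyond their first cleavage (chromosome 9 of mm9, 78224710 to 78226395, − strand, 3 exons). It was at 33.6 RPKM in H2AZ WT, 25.8 in the library labelled H2AZ KD and 16.2 in H2AZ-AP3 ESCs, and in EBs at 33.9, 27.3 and 16.3 RPKM. The 3 lines thus kept nearly the same levels at both days, with H2AZ-AP3 lowest and H2AZ WT highest. Between H2AZ-AP3 and H2AZ WT the log2 change was −1.05 at D0 (interval −1.21 to −0.89) and −1.05 at D3 (−1.22 to −0.88), a 2.08-fold and a 2.07-fold lower level. Between the library labelled H2AZ KD and H2AZ WT the log2 changes were −0.38 (D0) and −0.31 (D3), both within 1.5-fold. Against the library labelled H2AZ KD, H2AZ-AP3 was 1.59-fold lower at D0 and 1.67-fold lower at D3. From D0 to D3 the log2 change was 0.01, 0.08 and 0.01 in the same order of lines, the smallest day effect of the 9 members in H2AZ WT and in H2AZ-AP3.

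*Sycp3* encodes a protein of the axial and lateral elements of the synaptonemal complex, which joins homologous chromosomes in meiosis (chromosome 10 of mm9, + strand, with the deposited locus from 87922332 to 87966715). Its levels were 14.4 RPKM in H2AZ WT, 18 in the library labelled H2AZ KD and 16.9 in H2AZ-AP3 at D0, and 46.0, 34.3 and 19.1 RPKM at D3. The ESC libraries lay close together, and the EB libraries lay far apart. From D0 to D3 the level was 3.19-fold higher in H2AZ WT, 1.91-fold higher in the library labelled H2AZ KD and 1.13-fold higher in H2AZ-AP3, so that *Sycp3* passed 1.5-fold in both other lines but not in H2AZ-AP3. Between H2AZ-AP3 and H2AZ WT the log2 change was 0.23 at D0 (0.02 to 0.44) and −1.27 at D3 (−1.43 to −1.11). The deposited locus is shared with *Chpt1*, a gene of phospholipid synthesis on the opposite strand, and 47.0% of the bases of the *Sycp3* coding transcript lie in *Chpt1* exons. The library protocol as described does not state a strand-specific step, so reads in the shared bases cannot be told apart. *Chpt1* itself was at 4.49 to 5.75 RPKM in ESCs, against 6.06, 5.54 and 6.73 RPKM in EBs, highest in the EB library in which *Sycp3* was lowest.

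*Sycp1* encodes the transverse filament that bridges the lateral elements (chromosome 3, 102622422 to 102740023, − strand). It was at 2.35 RPKM in H2AZ WT, 1.66 in the library labelled H2AZ KD and 2.20 in H2AZ-AP3 ESCs, and in EBs at 1.51, 1.3 and 1.45 RPKM. Unlike *Sycp3* it was lower in EBs than in ESCs in each line, by a log2 change of −0.64, −0.35 and −0.60. H2AZ-AP3 and H2AZ WT differed little, with a log2 change of −0.09 at D0 (−0.40 to 0.22) and −0.06 at D3 (−0.47 to 0.34).

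*Mael* encodes a protein of the germ granule that acts in the piRNA pathway against retrotransposons (chromosome 1, 168131516 to 168168875, − strand, 12 exons). It was at 3.16 RPKM in H2AZ WT, 4.22 in the library labelled H2AZ KD and 4.59 in H2AZ-AP3 ESCs, and in EBs at 4.24, 2.62 and 1.72 RPKM. The order of the lines in EBs was the reverse of that in ESCs. The log2 change of H2AZ-AP3 against H2AZ WT was 0.54 at D0 (0.17 to 0.92) and −1.31 at D3 (−1.79 to −0.85), and that of the library labelled H2AZ KD was 0.42 and −0.70. From D0 to D3 *Mael* was higher in H2AZ WT by a log2 change of 0.43, within 1.5-fold, and lower by 0.69 in the library labelled H2AZ KD and by 1.42 in H2AZ-AP3. The H2AZ WT ESC value rests on an estimated 84 reads and the H2AZ-AP3 EB value on 55.

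*Tex19.1* encodes a mammalian protein that restrains retrotransposons in germ cells and placenta (chromosome 11, 121007457 to 121009627, + strand, 3 exons). Its levels at D0 were 27.2 RPKM in H2AZ WT, 31.5 in the library labelled H2AZ KD and 20.2 in H2AZ-AP3, and at D3 they were 18.9, 10.6 and 10.8 RPKM. Every EB library was below every ESC library. In EBs the library labelled H2AZ KD and H2AZ-AP3 did not differ beyond counting error (log2 change of H2AZ-AP3 against it 0.03, interval −0.17 to 0.23), and both were lower than H2AZ WT, by 1.79-fold and 1.75-fold. In ESCs the 2 lines lay on opposite sides of H2AZ WT, with log2 changes of 0.21 and −0.43. *Tex19.2*, its neighbouring paralog, was at 1.84, 1.02 and 0.86 RPKM at D0 and 1.10, 0.80 and 0.70 RPKM at D3. The alignment kept reads with up to 20 locations, and reads shared by both copies may have been split between them.

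*Dazl* and *Ddx4* encode RNA-binding proteins of germ cells, a translational regulator and the DEAD-box helicase also called VASA. *Dazl* (chromosome 17, 50418719 to 50432924, − strand) was at 2.46 RPKM in H2AZ WT, 2.59 in the library labelled H2AZ KD and 1.74 in H2AZ-AP3 ESCs, and in EBs at 1.53, 1.26 and 0.81 RPKM. The H2AZ-AP3 library was lowest at both days, and each EB library was below every ESC library. Against H2AZ WT its log2 change was −0.50 at D0 (−0.85 to −0.15) and −0.93 at D3 (−1.45 to −0.41), with an estimated 49 reads in the H2AZ-AP3 EB library. *Ddx4* (chromosome 13, 113388543 to 113442518, − strand) was at 12.5, 11.8 and 12.2 RPKM in ESCs, against 10.2, 11.9 and 8.58 RPKM in EBs. It was the steadiest of the 9 counted members, with its highest level 1.45 times its lowest, and it passed 1.5-fold in none of the 7 comparisons. Its log2 change in H2AZ-AP3 against H2AZ WT was −0.03 at D0 and −0.25 at D3 (−0.42 to −0.07).

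*Stk31* and *Tdrkh* encode proteins with Tudor domains, a fold that binds methylated arginines. *Stk31* (chromosome 6, 49345603 to 49419501, + strand) was at 1.88 RPKM in H2AZ WT, 1.76 in the library labelled H2AZ KD and 2.89 in H2AZ-AP3 ESCs, and in EBs at 2.24, 1.12 and 1.65 RPKM. It was highest in H2AZ-AP3 in ESCs and lowest in the library labelled H2AZ KD in EBs. The log2 change of H2AZ-AP3 against H2AZ WT was 0.62 at D0 (0.29 to 0.95), just past the threshold, and −0.45 at D3 (−0.82 to −0.09). In the library labelled H2AZ KD it was −0.09 at D0 (−0.50 to 0.31) and −1.0 at D3 (−1.40 to −0.62). *Tdrkh* (chromosome 3, 94217240 to 94235421, + strand) was at 3.06, 2.37 and 2.39 RPKM in ESCs, against 1.96, 2.20 and 1.75 RPKM in EBs. It stayed within 1.5-fold of H2AZ WT in both lines at both days, with its largest log2 change against it −0.37.

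*Asz1*, which encodes an ankyrin repeat protein of the germ granule beside the mitochondria (chromosome 6, 18000964 to 18059061, − strand), was listed at 0 in H2AZ WT and the library labelled H2AZ KD at D0 and in H2AZ-AP3 at D3. It was at 0.068 RPKM in H2AZ-AP3 ESCs and at 0.031 and 0.081 RPKM in H2AZ WT EBs and EBs of the library labelled H2AZ KD. These values stand for an estimated 1 to 4 reads, and no fold change is given. The listed value of 0 in H2AZ WT ESCs has an upper Poisson bound of 0.12 RPKM.

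**Figure D3:**
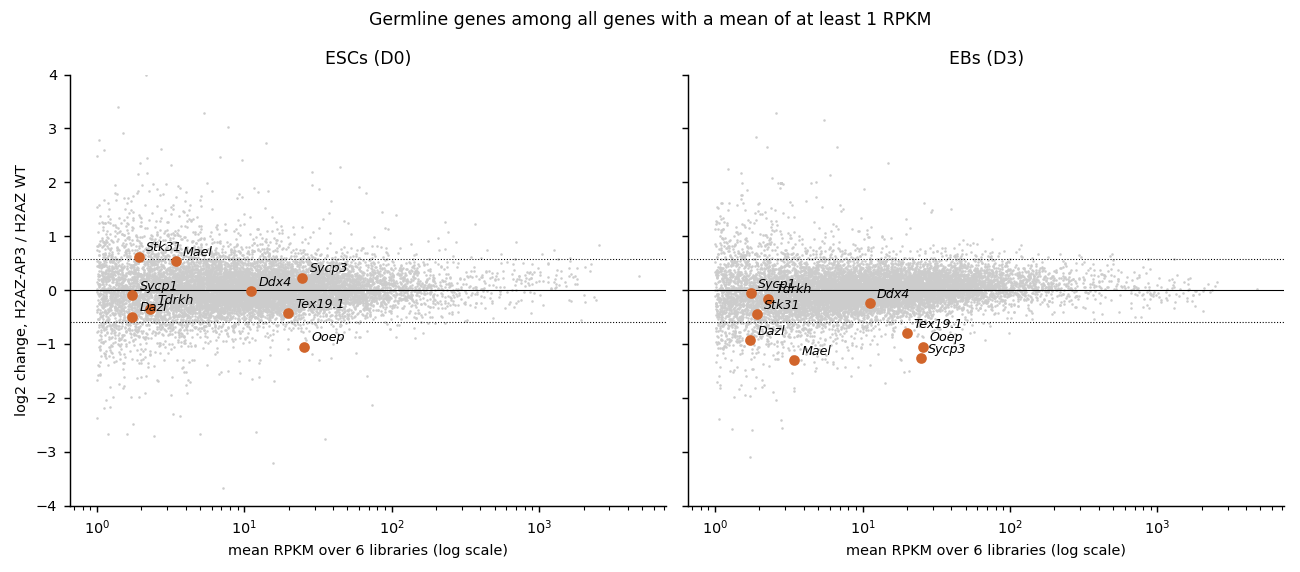
Log2 change of H2AZ-AP3 against H2AZ WT (vertical axis) against mean RPKM over the 6 libraries (horizontal log axis) for 11842 genes (mean of 1 RPKM or more) in grey and the 9 counted members in orange, with dotted lines at 1.5-fold, and 26 genes (ESCs) and 24 genes (EBs) beyond the vertical axis. In EBs *Sycp3*, *Ooep* and *Tex19.1* lie below the dotted line at mean levels of 19.9 to 25.5 RPKM.

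From ESCs to EBs the members did not share a direction. In H2AZ WT *Sycp3* was higher, 1 of 9 against 11.4% of all genes, and *Dazl*, *Sycp1* and *Tdrkh* were lower, 3 of 9 against 9.53%. In the library labelled H2AZ KD *Sycp3* was higher, 1 of 9 against 11.5%, and *Dazl*, *Mael*, *Tex19.1* and *Stk31* were lower, 4 of 9 against 8.86%. In H2AZ-AP3 none was higher, against 10.8% of all genes, and *Dazl*, *Sycp1*, *Mael*, *Tex19.1* and *Stk31* were lower, 5 of 9 against 11.5%. *Dazl* was thus the only member lower past 1.5-fold in all 3 lines, by 1.61-fold, 2.04-fold and 2.16-fold, and with a pseudocount of 1 RPKM its log2 change of −0.45 in H2AZ WT was within 1.5-fold. The median log2 change of the members was −0.29, −0.35 and −0.60, and that of all genes was 0.04, 0.04 and 0.05. Of the 5 counted fibroblast markers 4 were lower in EBs and *Thy1* was higher in every line, with median log2 changes of −2.67, −3.00 and −2.55. Of the 5 ESC markers *Klf4* was lower in every line, *Esrrb* in the library labelled H2AZ KD and H2AZ-AP3, and *Zfp42* in the library labelled H2AZ KD. Markers of early differentiation summed to 14.8, 20.1 and 20.4 RPKM at D0 and 59.1, 71.4 and 55.1 RPKM at D3 in the same order of lines. Of the 7 counted, *Foxa2*, *Gata6* and *Sox17*, factors of endoderm, were higher in H2AZ-AP3 than in H2AZ WT ESCs, *Fgf5* and *Otx2*, genes of the epiblast, were lower, against 6.80% and 5.49% of all genes, and none passed 1.5-fold in EBs. Under the KD label *Fgf5* and *Foxa2* were higher in ESCs, against 2.94% of all genes, *Gata6* was higher in EBs, against 3.23%, and none was lower. *Gata6* was at 2.96, 4.38 and 9.84 RPKM in ESCs and *Otx2*, the most abundant, at 4.22, 5.14 and 1.37 RPKM. The part of these markers in the results was not tested.

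The 3 lines were also taken as blocks, so that the day could be tested over all 6 libraries. This fit was added after the data were seen and models log2(RPKM + 0.001) with line and day as additive terms in limma, with 2 residual degrees of freedom, over the same 11842 genes. A further 3.27 prior degrees of freedom came from limma, estimated over those genes. Each line gave 1 library per day, so the error is how far the lines differ in their day change. It does not measure spread between cultures of a condition. *Dazl* was lower in EBs by 0.94 on the log2 scale (SE 0.15, limma adjusted p = 0.027), in 3 of 3 lines, and was the only one of the 9 members past an adjusted p of 0.05. That is 1 of 9 lower, against 4.04% of all genes, and 0 of 9 higher, against 3.39%. The next members by p-value were *Tex19.1*, with a log2 difference of −1.0 (SE 0.22, limma adjusted p = 0.063), and *Sycp1*, with −0.53 (SE 0.13, limma adjusted p = 0.085). At an unadjusted p under 0.05 there were 4 of 9 members lower, against 11.5% of all genes, and 1, *Sycp3*, higher, against 13.7%. The call of *Dazl* was lost without the H2AZ WT line (log2 difference −1.07, limma adjusted p = 0.10) and without the line labelled H2AZ KD (−0.90, limma adjusted p = 0.11). Its limma adjusted p over the alternatives ran from 0.022 to 0.11. Without H2AZ-AP3, *Sycp3* was higher as well (limma adjusted p = 0.025).

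In the same fit no gene of the 11842 passed for either line term over both days, which is 0.00% in each direction. For *Ooep* the difference between H2AZ-AP3 and H2AZ WT was −1.05 (SE 0.15), with an unadjusted limma p of 0.00073 and an adjusted p of 0.56. The line terms take the ESC and EB libraries of a line as its replicates, so their SE and p do not measure spread between cultures. At an unadjusted p under 0.05 there were 2 of 9 members lower in H2AZ-AP3, *Ooep* and *Dazl*, against 3.24% of all genes, and none higher, against 2.66%. For the library labelled H2AZ KD there was none lower, against 2.35% of all genes, and none higher, against 0.777%. The fit takes any departure from additive effects, such as that of *Sycp3* or *Mael*, as error.

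**Figure D4:**
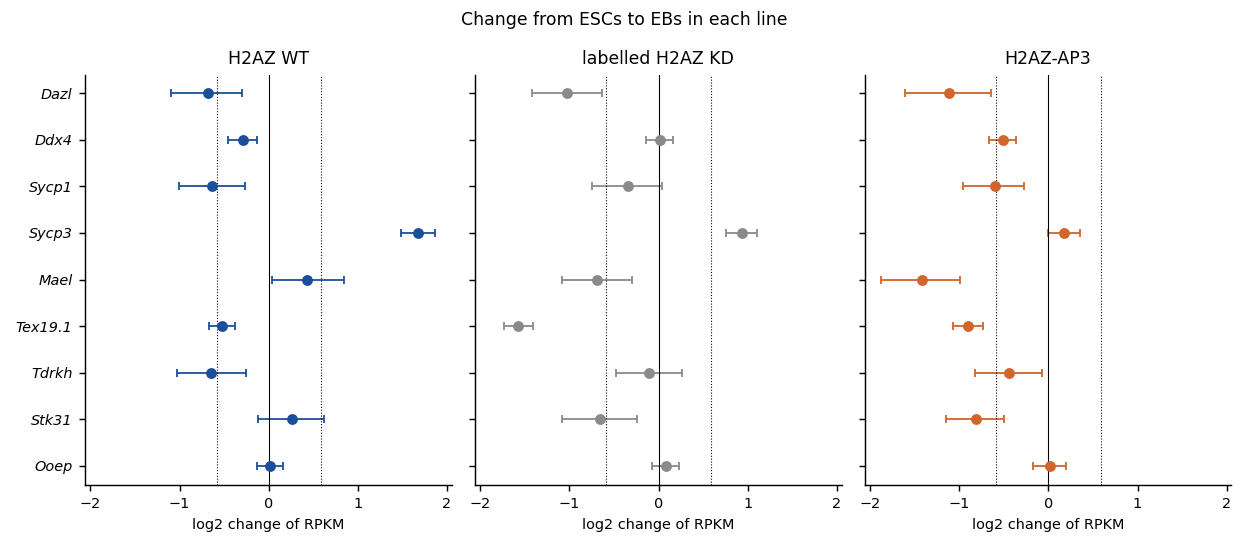
Log2 change of RPKM from ESCs to EBs (horizontal axis) of the 9 counted members in H2AZ WT (blue), the library labelled H2AZ KD (grey) and H2AZ-AP3 (orange), with exact 95% binomial intervals for counting error and dotted lines at 1.5-fold. *Sycp3* lies at 1.67, 0.93 and 0.18, and *Mael* lies right of 0 in H2AZ WT and left of it in the other lines.

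Of all genes 5.49% were lower and 6.80% higher in H2AZ-AP3 at D0 and 5.21% and 4.05% at D3, and in the library labelled H2AZ KD 4.02% and 2.94% at D0 and 4.53% and 3.23% at D3, and the lists of this and the next paragraphs are to be read against these shares. Other germline genes known to have methylated promoters were described from a list of 25, none of them among the 10, of which 13 had a mean of at least 1 RPKM. The lists, too, were chosen with earlier results of these data known, so their counts are descriptions and not tests. In H2AZ-AP3 against H2AZ WT 5 of the 13 were lower at D0 and 6 at D3, none was higher at either day, and the medians were −0.47 and −0.57. Lower at both days were *Smc1b*, the meiotic cohesin subunit, *Taf7l*, a germ cell subunit of TFIID, and *Tex19.2*. *Smc1b* was at 4.64 RPKM in H2AZ WT, 1.99 in the library labelled H2AZ KD and 2.24 in H2AZ-AP3 ESCs, and in EBs at 4.72, 4.22 and 2.31 RPKM. *Stag3*, a further meiotic cohesin subunit and the most abundant of the list, was at 9.09, 6.84 and 5.66 RPKM in ESCs, against 5.72, 6.81 and 3.86 RPKM in EBs. In the library labelled H2AZ KD 3 of the 13 were lower at D0, and at D3 1 was lower and 2 were higher.

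Meiotic genes overlap with that list. Of 17 analysed, 11 were counted, and in H2AZ-AP3 5 were lower than in H2AZ WT at D0 and 3 at D3, with none higher. Under the KD label 3 were lower and 1 was higher at D0, and 1 was higher at D3. *Rec8*, a meiotic cohesin, was lower at both days, at 8.39 against 4.56 RPKM at D0 and 8.59 against 5.51 RPKM at D3. *Syce2*, a central element protein of the synaptonemal complex and the most abundant of the list, was not, at 23.3 against 27.0 RPKM at D0 and 23.2 against 29.7 RPKM at D3. Of 17 piRNA pathway genes 10 were counted, of which 1 (*Tdrd12*) was lower at D0 and 3 (*Mov10l1*, *Tdrd1* and *Tdrd5*) at D3, with *Mov10l1* and *Tdrd1* already among the 6 of the first list. Under the KD label 1 was higher at each day and none lower. *Tdrd12*, the most abundant, was at 15.6 RPKM in H2AZ WT and 10.1 RPKM in H2AZ-AP3 ESCs and at 8.85 and 7.93 RPKM in EBs.

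Of 17 oocyte and maternal complex genes other than *Ooep*, only 4 were counted, and the egg coat genes *Zp1*, *Zp2* and *Zp3* were at most 0.61 RPKM in any library. *Zbed3*, the most abundant, was at 9.60, 6.49 and 8.80 RPKM in ESCs and 10.1, 8.10 and 13.9 RPKM in EBs. None of the 4 passed 1.5-fold in H2AZ-AP3 ESCs, whereas in EBs *Tle6* and *2410004A20Rik* were lower and *Nlrp4f* was higher. Under the KD label *Nlrp4f* and *Tle6* were lower in ESCs and *Tle6* in EBs. Of 8 genes of primordial germ cells 7 were counted, and *Dnd1*, *Dppa3*, *Prdm1* and *Prdm14* were lower in H2AZ-AP3 at D0, and *Kit* and *Prdm14* at D3. None passed 1.5-fold in the library labelled H2AZ KD. *Prdm14*, a regulator of naive pluripotency and of germ cell fate, was at 6.93 RPKM in H2AZ WT and 3.78 RPKM in H2AZ-AP3 ESCs, and in EBs at 6.48 and 4.07 RPKM. *Dppa5a* was the most abundant, between 685 and 1089 RPKM.

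Genes of the methylation machinery (*Dnmt1*, *Dnmt3a*, *Dnmt3b*, *Dnmt3l*, *Uhrf1* and *Tet1* to *Tet3*) all had a mean of at least 1 RPKM, and none of the 8 passed 1.5-fold in H2AZ-AP3 or in the library labelled H2AZ KD at either day. From ESCs to EBs *Dnmt3b*, a de novo methyltransferase, was higher and *Tet1* and *Tet2*, which oxidise methylcytosine, were lower in every line, and *Dnmt3a* was higher in H2AZ-AP3, with a log2 change of 0.65. Between days 10.8% to 11.5% of all genes were higher and 8.86% to 11.5% lower. *Uhrf1*, which brings DNMT1 to replicated DNA, was the most abundant at 87.3 to 112 RPKM. Of 15 genes for MGA, MAX, E2F6 and other repressors of germline genes, none passed 1.5-fold in ESCs of either line. In EBs 1 did in each, *Tfdp1* being higher in H2AZ-AP3 and *Ring1* lower in the library labelled H2AZ KD. *Cbx3*, which encodes the heterochromatin protein HP1 gamma, was the most abundant at 238 to 316 RPKM.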

How the data were processed

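The authors made TruSeq libraries from oligo(dT)-selected RNA, used Tophat and Bowtie 0.12.7 on single-end reads with mm9 as the genome, and deposited Cufflinks 1.3.0 output as RPKM per gene (the labels and the methods differ on the Tophat version). Log2 ratios between lines stand in the same table and were not used. Each of the 6 RPKM columns was matched to its sample by name. Ratios carry a pseudocount of 0.001 RPKM, and a floor of a mean of 1 RPKM was set because ratios of lower genes rest on few reads. Reads were estimated from RPKM, the exon bases of the longest coding GENCODE transcript (NCBIM37, the mm9 assembly) inside the deposited locus, and a depth taken from 3696 genes with 1 transcript over 1500 bases. On simulated reads this depth was recovered within 0.37%, with an estimator that was changed after an earlier form gave 1 library an implausible depth. Promoters are RefSeq windows (GRCm38.p6) matched to mm9. Alternatives were pseudocounts of 0.1 and 1, no floor, median centring and a 2-fold threshold. All 10 members were named, and from each list the most abundant gene and those past 1.5-fold the same way at both days in H2AZ-AP3; other genes named were chosen after their values were seen. The members and lists were chosen with earlier results of these data known. A limma 3.58.1 fit (R 4.3.3) with line and day as terms and Benjamini-Hochberg adjustment was added after the data were seen and tested on simulated data. Scripts ran in Python 3.11.15 (scipy 1.17.1, pandas 2.3.3, numpy 2.4.6, plots by matplotlib 3.10.9).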

Additional observations from a re-analysis of the deposited data

Results flagged for a closer look

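Some members lay on opposite sides of H2AZ WT at the 2 days, or moved in opposite directions between days in 2 lines, with both counting intervals off 0. With 1 library per condition none of these differences between days or lines was tested. In H2AZ-AP3 against H2AZ WT the log2 change went from 0.54 in ESCs to −1.31 in EBs for *Mael*, from 0.62 to −0.45 for *Stk31* and from 0.23 to −1.27 for *Sycp3*. In the library labelled H2AZ KD against H2AZ WT it went from 0.42 to −0.70 for *Mael*, from 0.21 to −0.84 for *Tex19.1* and from 0.32 to −0.42 for *Sycp3*. From ESCs to EBs *Mael* changed by 0.43 in H2AZ WT, by −0.69 in the library labelled H2AZ KD and by −1.42 in H2AZ-AP3. Except for *Stk31* at D0, the ESC values against H2AZ WT were all within 1.5-fold.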

How the results depend on the processing

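The counts of members past 1.5-fold were the same or within 1.5 times with a pseudocount of 0.1, without the floor and with each pair of libraries centred on its median. Without the floor the share of all genes grew too, to 25%, 22.1%, 19.7% and 20.7% for H2AZ-AP3 in ESCs and EBs and the library labelled H2AZ KD in ESCs and EBs (from 12.3%, 9.26%, 6.96% and 7.77%) and to between 30.2% and 31% from ESCs to EBs (from between 20.4% and 22.3%), so that the 3 of 10 members in H2AZ-AP3 ESCs lie near it. With a pseudocount of 1 RPKM they came to 1 and 4 in H2AZ-AP3 against H2AZ WT in ESCs and EBs (7.15% and 4.72% of all genes). In the library labelled H2AZ KD they came to 2 in EBs (3.39%). From ESCs to EBs they came to 1 in H2AZ WT (15.1%), 3 in the library labelled H2AZ KD (14.3%) and 3 in H2AZ-AP3 (16% of all genes). With a 2-fold threshold they came to 1 and 3 in H2AZ-AP3 against H2AZ WT in ESCs and EBs (3.45% and 2.56%) and to 1 in the library labelled H2AZ KD in EBs (2.05%), and from ESCs to EBs to 1, 2 and 2 (8.54%, 8.35% and 8.49%) in the same order of lines. The stricter threshold lowers a count by construction, and the cause of the others was not tested. Of 210 recomputed log2 changes 207 stayed within the counting interval of the reported value or, where both levels were 0 and no interval exists, equalled that value. No change past 1.5-fold turned its sign. Centring turned the sign of 3 day changes of at most 0.013, of *Ooep* in H2AZ WT (−0.03) and H2AZ-AP3 (−0.03) and of *Ddx4* in the library labelled H2AZ KD (−0.03). Of the 3 others, *Stk31* in EBs of the library labelled H2AZ KD and *Dazl* from ESCs to EBs in H2AZ-AP3 left the interval with a pseudocount of 1 (−0.61 and −0.60). The last was *Asz1* in ESCs of the library labelled H2AZ KD against H2AZ WT, where both levels were 0. It has no interval, and centring moved it from 0 to 0.03. In the limma fit with the lines as blocks, members called for the day went from 1 (7.43% of all genes) to 2 with a pseudocount of 0.1 (8.9%) and to 2 with 1 RPKM (10.3%), with *Tex19.1* in addition. They came to 0 without H2AZ WT (1.43%), 0 without the line labelled H2AZ KD (2.63%) and 2 without H2AZ-AP3 (10% of all genes), while those called for a line stayed at 0. On simulated data the fit found 83% of 2-fold and 98% of 4-fold day changes, and 17 of its 198 calls were of unchanged genes. The simulation had no line effects and no departure from additive effects, so these rates need not hold for genes such as *Sycp3* or *Mael*. Depth limits *Asz1* most, and then *Dazl* and *Mael*, with as few as 49 and 55 estimated reads in a library.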

Other observations

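Of all genes averaging 5 RPKM or more with a highest level at least 2 times the lowest (1002 genes), those most like a member over the 6 libraries were taken by Pearson's r of log2(RPKM + 0.1), a description from 6 points that share libraries. Nearest to *Ooep* were *Alpl*, an alkaline phosphatase (r = 0.91), *Stk30* (r = 0.89) and *Rsph1* (r = 0.87), and *Alpl* was the only gene with r over 0.9. *Alpl* was at 49.7 RPKM in H2AZ WT, 35.3 in the library labelled H2AZ KD and 30.1 in H2AZ-AP3 in ESCs, and in EBs at 61.9, 42.9 and 31.2 RPKM. Nearest to *Sycp3* were *2810008D09Rik* (r = 0.98), *Pisd-ps1* (r = 0.97) and *Nfatc4* (r = 0.95), to *Tex19.1* were *Aqp3* (r = 0.98), *Maff* (r = 0.97) and *Jam2* (r = 0.97), and to *Ddx4*, which itself varied less than 2 times, were *Eif2c2*, *Lnpep* and *Zbed6* (each r = 0.98). *2810008D09Rik* was at 7.07, 11.7 and 11.5 RPKM in ESCs, against 47.0, 30.0 and 16.5 RPKM in EBs. In all, r was over 0.9 for 26 genes with *Sycp3*, 18 with *Ddx4* and 15 with *Tex19.1*.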
